A study of Mus musculus with 6 samples.

Results

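The genes described here carry bicarbonate across membranes or interconvert carbon dioxide and bicarbonate. They were measured in sorted collecting duct cells of newborn mice with and without the bradykinin B2 receptor gene, Bdkrb2. The 10 genes, out of 20887 named genes on the arrays, are 4 anion exchangers (Slc4a1, Slc4a9, Slc26a4 and Slc26a7), 2 sodium bicarbonate cotransporters (Slc4a4 and Slc4a7) and 4 carbonic anhydrases (Car2, Car4, Car12 and Car15). They were chosen by gene symbol, and all 15 probes whose RefSeq accession maps to one of them were read. Of these probes 14, covering all 10 genes, were tested, because in 1 group or both every array read the Cy5 signal well above background. Both groups were salt-stressed C57BL/6 mice of postnatal day 1 that carried Hoxb7cre+ and R26RtdTomato. The 3 MUT pools were also Bdkrb2f/f, so that the receptor gene is removed where the Hoxb7 driver is active, which is the ureteric bud and the collecting duct grown from it. The 3 WT pools were Bdkrb2+/+. Cells positive for GFP and tdTomato were sorted, as pools of a number of mice that the labels do not state. Each array held 1 pool in Cy5 and RNA of WT pool 1 in Cy3, with no dye swap. A log2 ratio of 0 therefore means a signal equal to that of WT pool 1, whose own array compared that RNA with itself.

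Collecting duct acid-base transport is the work of intercalated cells. Type A cells secrete protons into the urine and return bicarbonate to the blood through a basolateral exchanger, while type B cells do the reverse and secrete bicarbonate through the apical exchanger pendrin. Carbonic anhydrases supply both cell types with protons and bicarbonate. Other segments use sodium-coupled bicarbonate carriers, above all the proximal tubule.

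Of the 10 genes, 6 fell in MUT, 1 rose and 3 were not called (limma, Benjamini-Hochberg adjusted p under 0.05 over all 29003 tested probes, brightest tested probe of each gene). In the same fit 18.8% of all tested genes were lower, 14% were higher and 32.8% were called in either direction. By probe, 8 of the 14 were lower, against 14.6% of all tested probes, and 1 was higher, against 11.6%, with 26.1% called in either direction. The genes that fell were Slc4a1, Slc4a9, Slc26a4, Car2, Car12 and Car15, and Slc4a7 rose, on its brighter probe only. All 6 falls were of at least 2-fold, a size of fall seen in 5.23% of all tested genes. The median change over the 10 genes was -1.57 on the log2 scale, against -0.02 over all genes tested.

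**Figure D1:**
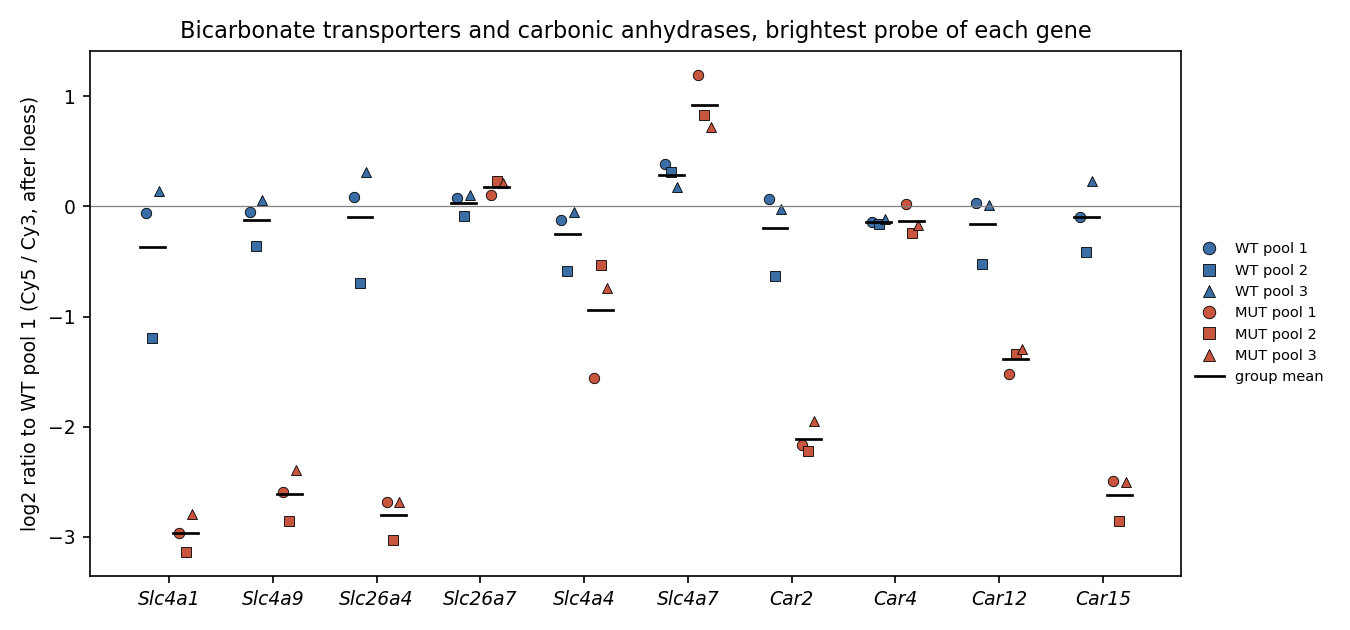
Log2 ratio to WT pool 1 (vertical axis, after loess) of the brightest probe of each gene (horizontal axis), with 1 point per pool, blue for WT and red for MUT, and black bars for group means. The MUT pools of Slc4a1, Slc4a9, Slc26a4, Car2, Car12 and Car15 all lie below their WT pools, those of Slc4a7 lie above them, and those of Slc26a7, Slc4a4 and Car4 overlap with WT.

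The upstream sequences of genes that moved in opposite directions are shown here so that they can be set beside the expression values. RefSeq promoters (GRCm38.p6) were matched by symbol for 6 of the 10 genes, with 7 start sites in all, and the 250 bases before the start are given for 3 genes that fell and for the 1 that rose. Slc26a4 lies at chr12:31559985-31560234 (minus strand), Car15 at chr16:17838187-17838436 (minus strand), Car12 at chr9:66713436-66713685 (plus strand) and Slc4a7 at chr14:14718534-14718783 (plus strand), each read from 5′ to 3′ with the start site just after the last base. Capitals mark the core TGTTTA of forkhead factors, a family that includes the intercalated cell regulator Foxi1, and the TATA box letters TATAAA. Both were searched on either strand (also as TAAACA and TTTATA).
Slc26a4: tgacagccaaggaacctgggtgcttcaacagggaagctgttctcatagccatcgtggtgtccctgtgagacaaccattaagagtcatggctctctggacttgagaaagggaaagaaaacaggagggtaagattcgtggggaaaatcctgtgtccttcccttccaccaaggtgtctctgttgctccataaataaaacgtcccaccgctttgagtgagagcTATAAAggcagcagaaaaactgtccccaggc
Car15: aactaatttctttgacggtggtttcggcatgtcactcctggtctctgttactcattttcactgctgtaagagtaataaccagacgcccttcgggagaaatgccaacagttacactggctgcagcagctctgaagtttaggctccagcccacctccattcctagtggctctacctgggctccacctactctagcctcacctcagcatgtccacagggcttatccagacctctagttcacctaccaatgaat
Car12: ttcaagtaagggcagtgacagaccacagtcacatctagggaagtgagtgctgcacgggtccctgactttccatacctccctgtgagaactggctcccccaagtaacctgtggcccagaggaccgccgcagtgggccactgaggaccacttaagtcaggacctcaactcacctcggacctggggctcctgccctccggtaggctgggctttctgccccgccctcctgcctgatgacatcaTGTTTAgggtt
Slc4a7: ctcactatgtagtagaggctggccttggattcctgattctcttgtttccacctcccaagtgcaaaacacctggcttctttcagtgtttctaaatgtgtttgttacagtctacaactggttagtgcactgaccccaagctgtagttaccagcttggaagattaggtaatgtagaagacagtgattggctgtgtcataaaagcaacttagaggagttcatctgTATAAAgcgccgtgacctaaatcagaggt
The forkhead core was found in 1 of the 7 promoters, that of Car12, and in 12% of 32851 promoters of the same length. The TATA letters, a motif added after the sequences had been read, were found in 2 of the 7, Slc26a4 and Slc4a7, and in 12.4% of all promoters. They stood in 1 gene that fell and in Slc4a7, which rose on its brighter probe but not on its other one (-0.24, limma adjusted p = 0.563). A match is a description of the letters and not of binding.

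The whole arrays set the frame for these values. Depending on the array, 27022 to 31314 of 55681 probes had a Cy5 signal well above background. Precision is limited by having 3 arrays in a group. The single Bdkrb2 probe stayed too close to background on all 6 arrays to count as detected, with log2 ratios from -0.16 to 0.12 in WT and from -0.08 to 0.05 in MUT, and it does not check the deletion. Whether it lies in the deleted part is not given here. Collecting duct markers were present: 10 of 11 principal cell genes, 12 of 12 intercalated cell genes and 11 of 11 ureteric trunk genes were tested. All of those tested were lower in MUT, with median changes of -1.97, -2.16 and -1.63. Scaled to the spike-in controls after loess, RNAs added in labelling, 6 principal, 9 intercalated and 3 ureteric trunk genes were lower, with medians of -0.99, -1.18 and -0.64. Markers of cells outside the ureteric lineage were detected too. Of the nephron progenitor genes 7 of 8 were higher (median change 1.85), as were 8 of 10 stromal genes (1.78) and 8 of 10 leukocyte genes (0.99). Another gene of the leukocyte list, Ptprc, was lower (-0.43). Of the endothelial genes 9 of 11 were lower (-1.02), but 1 of 11 with spike-in scaling after loess (-0.04). The part of these markers in the results below was not tested. In pooled RNA, fewer cells of a type and less RNA per cell cannot be told apart. The p-values measure the spread between pools.

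Pendrin, encoded by Slc26a4, had the largest fall of the 10 genes. Its log2 ratios, in the order of pools 1 to 3, were 0.08, -0.69 and 0.32 for WT and -2.69, -3.03 and -2.69 for MUT. Every MUT pool lay far below every WT pool. Pendrin exchanges chloride for bicarbonate at the apical membrane of type B intercalated cells. The change was -2.70 ± 0.25 (SE, n = 3 per group, 95% confidence interval -3.28 to -2.13, limma adjusted p = 0.000483), or 6.51-fold lower.

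Slc4a9, the basolateral exchanger of type B cells, fell on both of its probes. The brighter probe read -0.05, -0.36 and 0.05 in WT and -2.59, -2.86 and -2.39 in MUT. The other read -0.12, -0.39 and -0.10 in WT and -2.17, -2.25 and -1.91 in MUT. WT pool 2 was the lowest WT pool on both, and neither probe's groups overlapped. The changes were -2.50 ± 0.16 and -1.91 ± 0.13 (SE, n = 3 per group, limma adjusted p = 0.000365 for each), or 5.65-fold and 3.75-fold lower. The other probe minus the brighter one was -0.08 ± 0.07 in WT and 0.51 ± 0.10 in MUT (SD, n = 3), with no overlap, so the size of the fall depended on the probe. An exact permutation test of 3 against 3 pools (two-sided) gave p = 0.1, the smallest it can give.

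Slc4a1 encodes the basolateral chloride-bicarbonate exchanger of type A intercalated cells, and the same gene encodes the anion exchanger of the red cell membrane. Its log2 ratios were -0.06, -1.19 and 0.14 in WT and -2.96, -3.14 and -2.79 in MUT. WT pool 2 stood more than 1 log2 unit below the other WT pools, and still above every MUT pool. The change was -2.60 ± 0.32 (SE, n = 3 per group, 95% confidence interval -3.33 to -1.86, limma adjusted p = 0.00121), or 6.04-fold lower. Without WT pool 2 it was -3.01.

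Most of the red cell genes tested fell, as Slc4a1 did. Of 14 erythroid genes on the arrays 8 were tested, of which 6 were lower and 1, Ermap, was higher. Apart from Alas2 the lower ones were all globin genes, so the list is mostly a globin list. Hemgn was not called (0.18), with every MUT pool above every WT pool. Their median log2 ratio was -0.07, -1.30 and 0.24 in WT and -2.36, -2.59 and -2.72 in MUT. WT pool 2 was also the lowest WT pool for this list. It was lowest too for the intercalated, the loop and distal, and the proximal tubule lists (-0.30, -0.68 and -0.94), but not for the ureteric trunk list (0.15). The part of red cell RNA in the fall of Slc4a1 was not tested. Hbb-bs, a beta globin gene with close copies that can share probe signal, changed by -2.84, and Alas2, the heme synthesis enzyme of red cell precursors, by -1.97. Among the genes below the filter were Klf1, Rhag and Epb42, which mark red cells and their precursors. After each array was centred on the erythroid median, Slc4a1 read 0.01, 0.10 and -0.10 in WT and -0.61, -0.55 and -0.08 in MUT. The groups then overlapped, and the relative change was -0.42 (95% confidence interval -1.43 to 0.59, limma adjusted p = 0.419).

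The probe of Slc26a7, an anion exchanger found at the basolateral membrane of medullary type A cells, was dim. Its Cy5 signals were 119, 84 and 101 in WT, over local backgrounds of 69, 65 and 64.5. In MUT they were 151, 156.5 and 164.5, over 72, 72 and 73. It passed the test for well above background on 2 of 3 WT and on all 3 MUT arrays, and every signal was close to its background. Its log2 ratios were 0.07, -0.08 and 0.11 in WT and 0.11, 0.23 and 0.21 in MUT, with a narrow overlap between WT pool 3 and MUT pool 1. The change of 0.15 ± 0.10 (SE, n = 3 per group, 95% confidence interval -0.09 to 0.38) was not called (limma adjusted p = 0.316). The background offset compresses changes of a probe this dim. With the scanner software's processed signals the change was 0.80 (adjusted p = 0.248).

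The cotransporters did not move together. Slc4a7 encodes an electroneutral sodium bicarbonate cotransporter known from the thick ascending limb, and its brighter probe was the only probe of the 10 genes that was called higher. It read 0.39, 0.31 and 0.17 in WT and 1.20, 0.83 and 0.72 in MUT. Every MUT pool lay above every WT pool, a pattern that 24.2% of all tested genes showed. The change was 0.63 ± 0.14 (SE, n = 3 per group, 95% confidence interval 0.30 to 0.96, limma adjusted p = 0.0154), or 1.54-fold higher. The 10 marker genes of the loop of Henle and distal tubule, the segments where this cotransporter is best known, were all lower in MUT, with a median change of -2.20 (8 of 10 with spike-in scaling after loess).

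The rise of Slc4a7 was not shared by its other probe. That probe read 0.05, 0.17 and 0.10 in WT and -0.85, 0.41 and 0.04 in MUT, and its change was -0.24 ± 0.28 (SE, n = 3 per group, limma adjusted p = 0.563). MUT pool 1 was the lowest of all pools on this probe and the highest on the brighter one. The Cy3 signal of the other probe, which comes from the same RNA on every array, was 269 on the array of MUT pool 1 and 59 to 88 on the other arrays. Its centred log2 Cy3 signal had an SD of 0.46 over the 6 arrays, against a median of 0.12 over all tested probes. Without MUT pool 1 its change was 0.11. The call of the brighter probe was lost without WT pool 3 (0.57, adjusted p = 0.0745) and in 5 other settings, among them the deposited log ratios (0.67, adjusted p = 0.058) and the mean over both probes (0.19, adjusted p = 0.266). Over all alternatives its adjusted p ran from 0.000388 to 0.266.

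Slc4a4, the electrogenic sodium bicarbonate cotransporter of the basolateral proximal tubule, was lower in MUT on average but was not called. Its brightest probe read -0.13, -0.59 and -0.05 in WT and -1.55, -0.54 and -0.74 in MUT. Another probe read 0.09, -0.53 and -0.18 in WT and -1.61, -0.61 and -0.59 in MUT. On both probes MUT pool 1 stood far below the other MUT pools, which lay close to WT pool 2. The groups overlapped on the brightest probe, and on the other every MUT pool lay just below WT pool 2. The changes were -0.69 ± 0.27 and -0.73 ± 0.29 (SE, n = 3 per group, limma adjusted p = 0.097 and 0.101). The difference between the probes changed by -0.04 between the groups, and the pools overlapped. The remaining probe was well above background on no WT array and on 1 MUT array, and was not tested. Without MUT pool 1 the change of the brightest probe was -0.38 (adjusted p = 0.0966, with a range over the alternatives from 0.0626 to 0.683).

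Proximal tubule genes were compared with Slc4a4 because that segment holds most renal Slc4a4. Of 15 such genes 4 were lower by limma, against 18.8% of all tested genes, and 11 were not called. Their median log2 ratio was 0.06, -0.94 and -0.20 in WT and -0.61, -0.69 and -0.84 in MUT, so WT pool 2 lay below every MUT pool. The median change of the list was -0.36. It turned to 0.63 with spike-in scaling after loess, where 2 genes were higher and the other 13 were not called, and it was -0.02 with median centring, where 1 was lower. Relative to this list Slc4a4 changed by -0.34 (95% confidence interval -1.04 to 0.36, limma adjusted p = 0.577), and the groups overlapped.

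Car2, the cytosolic carbonic anhydrase that carries most of the enzyme activity of the kidney, fell. It read 0.07, -0.63 and -0.02 in WT and -2.17, -2.22 and -1.95 in MUT. The MUT pools were close together and well below WT pool 2, the lowest WT pool. The change was -1.92 ± 0.19 (SE, n = 3 per group, 95% confidence interval -2.36 to -1.48, limma adjusted p = 0.000565), or 3.78-fold lower. Car2 is also a red cell enzyme, and the erythroid values given for Slc4a1 stand beside it too. Relative to the erythroid list Car2 changed by 0.26 (95% confidence interval -0.75 to 1.27, limma adjusted p = 0.62), and the groups overlapped. That interval rests on the same shared standard error of 0.52.

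Car15, a membrane-anchored carbonic anhydrase, read -0.10, -0.42 and 0.23 in WT and -2.50, -2.86 and -2.50 in MUT. No MUT pool came within 2 log2 units of a WT pool. The change was -2.52 ± 0.18 (SE, n = 3 per group, 95% confidence interval -2.94 to -2.11, limma adjusted p = 0.000365), or 5.75-fold lower, the largest fall among the carbonic anhydrases.

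Car12 encodes a transmembrane carbonic anhydrase whose catalytic domain faces the outside of the cell. It read 0.03, -0.52 and 0.02 in WT and -1.53, -1.34 and -1.30 in MUT, again without overlap. The change was -1.23 ± 0.17 (SE, n = 3 per group, 95% confidence interval -1.61 to -0.84, limma adjusted p = 0.00179), or 2.34-fold lower, the smallest of the 6 falls. Scaled to the spike-in controls, it was not called (-0.25 after loess and -0.27 without loess, adjusted p = 0.565 and 0.513, with 0.000727 as the lowest over the alternatives).

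Car4, a carbonic anhydrase held in the membrane by a lipid anchor and known from proximal tubule and endothelium, differed between its probes. The brighter probe read -0.14, -0.16 and -0.11 in WT and 0.02, -0.24 and -0.17 in MUT. The other read -0.32, -0.65 and -0.35 in WT and -1.04, -0.88 and -0.77 in MUT. The groups overlapped on the brighter probe and lay apart on the other. The brighter probe changed by 0.01 ± 0.11 (SE, n = 3 per group, 95% confidence interval -0.24 to 0.25, limma adjusted p = 0.976). The other changed by -0.46 ± 0.13 (95% confidence interval -0.76 to -0.16, limma adjusted p = 0.0358) and was called lower. The difference between the probes itself changed by -0.46 with no overlap (exact permutation p = 0.1, two-sided, the smallest possible). The other probe kept its call in 6 of 18 alternatives, and its sign turned under both spike-in scalings, with adjusted p from 0.0243 to 0.603.

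**Figure D2:**
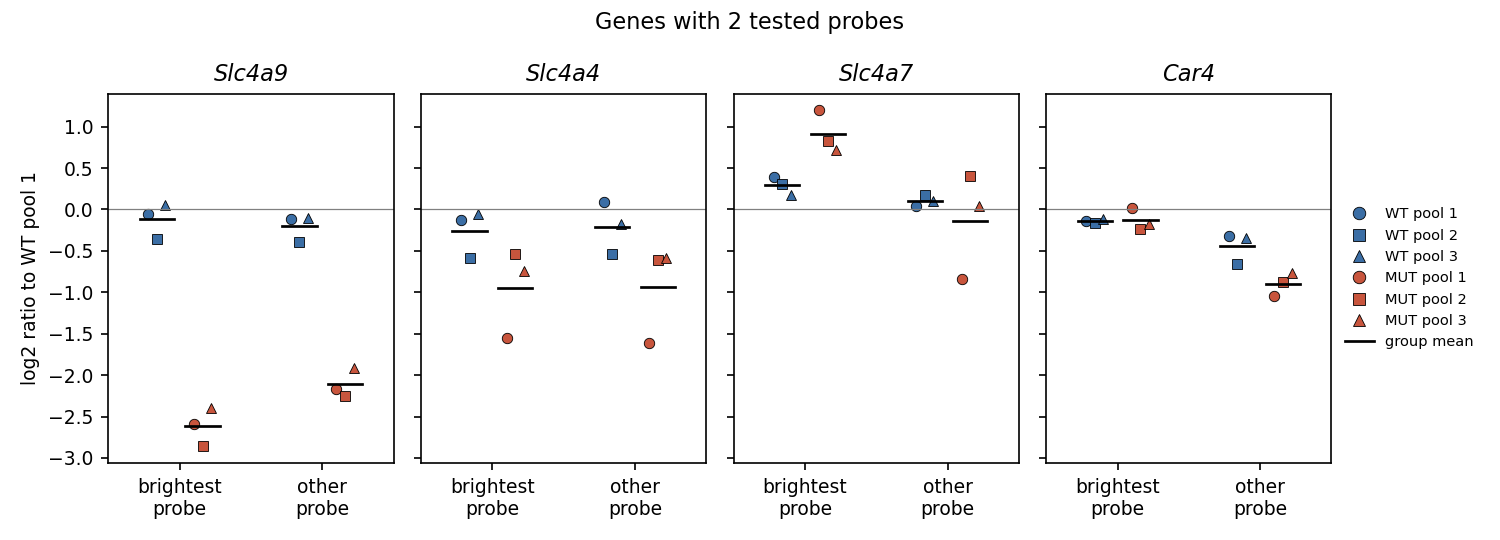
Log2 ratio to WT pool 1 (vertical axis) on the brightest and the other tested probe (horizontal axis) of the 4 genes with 2 tested probes, with 1 point per pool, blue for WT and red for MUT, and black bars for group means. Both probes of Slc4a9 are lower in MUT, MUT pool 1 is lowest on both probes of Slc4a4, whose groups overlap on the brightest one, and the probes of Slc4a7 and of Car4 differ from each other.

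**Figure D3:**
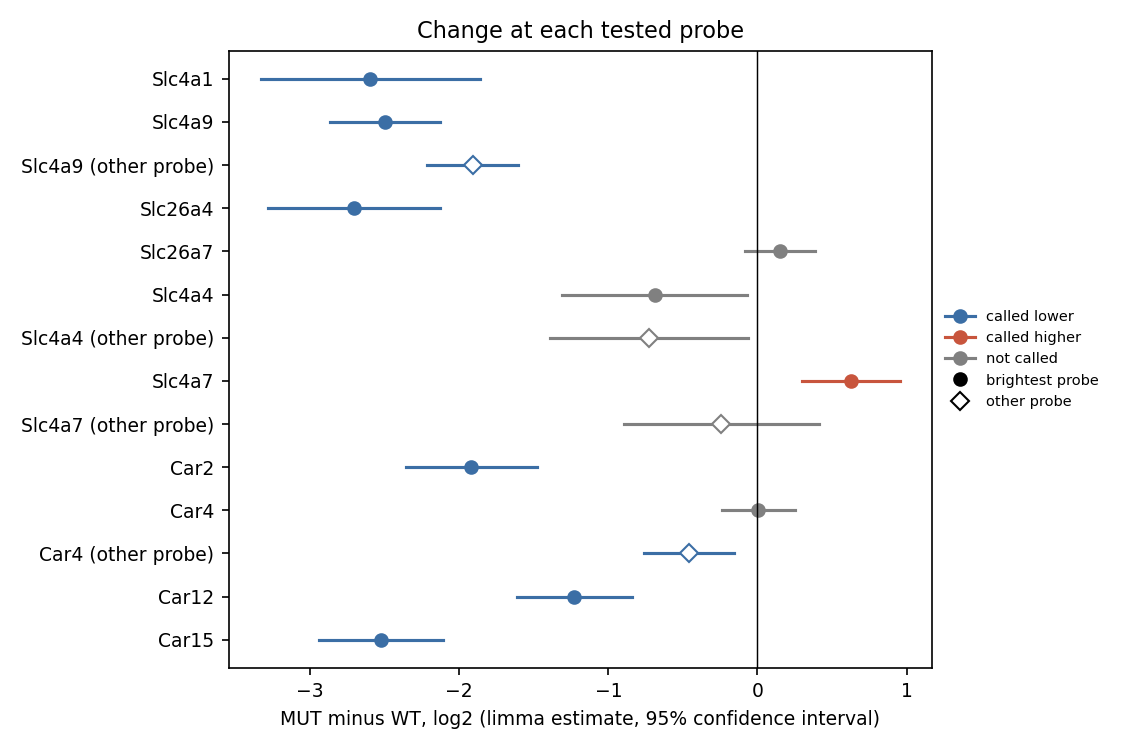
Change between MUT and WT (horizontal axis, log2) at each of the 14 tested probes (rows), with the limma estimate and its 95% confidence interval. Filled circles are brightest probes, open diamonds other probes, blue called lower, red called higher and grey not called. Changes run from -2.70 for Slc26a4 to 0.63 for the brighter Slc4a7 probe.

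The 6 falls were set against each other within pools, which removes the scale between arrays. The genes were picked and ordered by their fall in these same data, so pairs of unequal falls were the ones likely to lie apart. Of 15 pairs of genes, 9 had a difference that lay apart between MUT and WT. The share among other pairs of genes was not counted. Among the largest falls, those of Slc26a4, Slc4a1, Car15 and Slc4a9, all 6 pairs overlapped. For example, Car15 minus Slc4a9 was 0.02 ± 0.13 in WT and -0.0029 ± 0.10 in MUT (SD, n = 3), close to 0 in both groups. Every pair with Car2 or Car12 lay apart. Car15 minus Car12 was 0.06 ± 0.17 in WT and -1.23 ± 0.28 in MUT, a shift of -1.30. Slc26a4 minus Car2 shifted by -0.78, and Car2 minus Car12 by -0.69. Each of the 9 pairs had an exact permutation p of 0.1, the smallest possible with 3 against 3 pools, and 0.167 after Benjamini-Hochberg adjustment over the 15 pairs, so none passed that test.

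Intercalated cell markers outside the 10 genes fell as well. All 12 were lower, and their median log2 ratio was 0.13, -0.30 and 0.29 in WT and -2.06, -2.39 and -2.10 in MUT. Among them, by smallest adjusted p, Dmrt2 and Hmx2, both transcription factors, changed by -2.43 and -2.61, and Oxgr1, the receptor for alpha-ketoglutarate, by -2.38. The arrays were then centred on this list, so that 0 means the same log2 ratio as the median intercalated marker. On that scale 5 of the 10 genes were called higher by limma and 5 were not called, while among all tested genes 98.6% were higher and 0.123% lower. The list's shift enters every probe, so the fit gave all of them the same standard error of 0.28, and its p-values rest on that shared spread. An exact permutation test of a single gene cannot go below 0.1 here.

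Slc4a1, Slc4a9, Slc26a4, Car2 and Car15 were not called relative to the intercalated list. Their changes were -0.37, -0.27, -0.48, 0.31 and -0.30, with limma adjusted p of 0.18, 0.324, 0.0835, 0.268 and 0.279. The pools of Slc26a4, Slc4a9 and Car15 lay apart, with each MUT pool lower (exact permutation p = 0.1 each). The share of all tested genes whose pools lay apart on this scale was not counted. The other Slc4a9 probe went the opposite way, with a change of 0.32 and overlapping pools (limma adjusted p = 0.253, exact permutation p = 0.2). Without WT pool 2 Slc26a4 and Slc4a1 were called lower by limma (-0.61 each, adjusted p = 0.00807 and 0.0087). Over 18 alternatives Slc26a4 was called lower in 4, with adjusted p from 0.00243 to 0.431, and Slc4a1 in 3, from 0.0087 to 0.445. Car2 was called higher in 2, from 0.0191 to 0.757. The 95% confidence intervals allow a relative fall of Slc26a4 of up to 1.02 and of Slc4a1 of up to 0.91.

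Car12 fell less than the median intercalated marker, as did nearly all tested genes, though Kit and Atp6v1g3 on that list fell by 0.83 and 1.13. Relative to the list median Car12 read -0.10, -0.23 and -0.27 in WT and 0.53, 1.05 and 0.80 in MUT, a change of 1.00 (95% confidence interval 0.46 to 1.54, limma adjusted p = 0.000311). It was called higher in all 18 alternatives, with adjusted p from 7.02e-08 to 0.0388. Slc26a7, Slc4a4, Slc4a7 and Car4 were higher on this scale by 2.37, 1.54, 2.85 and 2.23, as were nearly all genes. Slc26a7 passed the filter through the MUT arrays only, and its own change was 0.15. Its value on this and the other shifted scales is therefore mostly the shift itself. It was not tested where all 6 arrays had to be well above background.

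**Figure D4:**
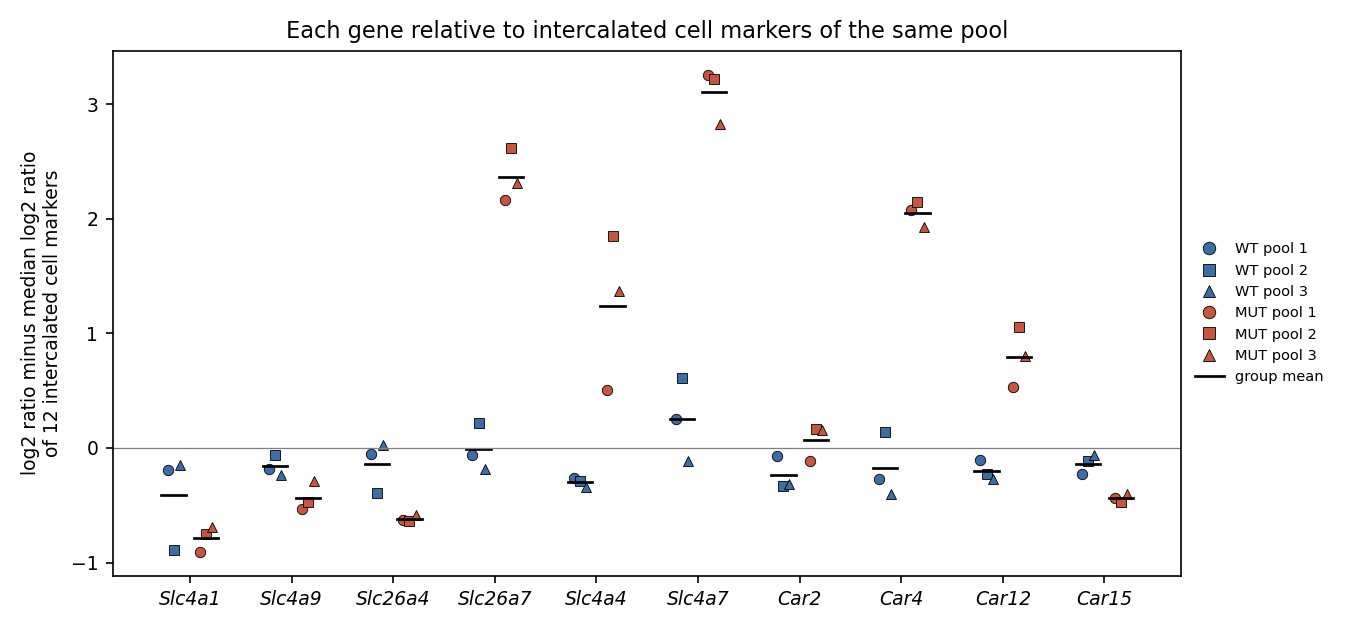
Log2 ratio of each gene minus the median log2 ratio of 12 intercalated cell markers of the same pool (vertical axis), with 1 point per pool, blue for WT and red for MUT, and black bars for group means. Slc4a1, Slc4a9, Slc26a4, Car2 and Car15 lie within 1 log2 unit of 0 in every pool, Car12 is higher in MUT, and Slc26a7, Slc4a4, Slc4a7 and Car4 are well above 0 in MUT.

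The other lists placed the genes differently. On each of these scales all probes of the 10 genes again had the same standard error. It was 0.32 for the ureteric trunk, 0.36 for the proximal tubule and 0.52 for the erythroid list. A call there thus follows the size of the change and not the spread of that gene's own pools. Relative to the ureteric trunk markers Slc4a1, Slc4a9, Slc26a4 and Car15 were lower, by -1.03, -0.93, -1.14 and -0.96, against 0.494% of all tested genes. The pools of Slc4a1 overlapped, however (exact permutation p = 0.3). The other Slc4a9 probe was not called on that scale (-0.34, limma adjusted p = 0.298). Slc26a7, Slc4a4, Slc4a7 and Car4 were higher on that scale, against 93.7% of all tested genes, and Car2 and Car12 were not called. Relative to the proximal tubule list Slc4a1, Slc4a9, Slc26a4, Car2 and Car15 were lower, against 2.24% of all tested genes, and the other 5 were not called, while 6.89% of all tested genes were higher. Relative to the erythroid list Slc26a7, Slc4a4, Slc4a7 and Car4 were higher, against 96.3% of all tested genes, and the other 6 were not called, while 0.0206% of all tested genes were lower. For the pool values themselves, 6 of the 10 genes had every MUT pool below every WT pool on the scale of ratios to WT pool 1, against 28.3% of all tested genes.

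Some relatives of these genes were lower, as were 18.8% of all tested genes. Of 14 other Slc4 and Slc26 genes on the arrays 10 were tested, of which 4 were lower and 6 were not called, with a median change of -0.35. Slc4a11, a family member of kidney and cornea, changed by -2.15 (limma adjusted p = 0.000396) and Slc26a10 by -1.19 (0.000441). Slc4a3 and Slc4a2, both chloride-bicarbonate exchangers, changed by -0.65 (0.00772) and -0.53 (0.0147). Scaled to the spike-in controls after loess, Slc4a11 was still lower (-1.17), Slc26a10 was not called (-0.21), and Slc4a3 and Slc4a2 turned to 0.33 and 0.46, neither called. Of 12 other carbonic anhydrases 8 were tested, with a median change of -0.13. Of these 2 were lower, near the share of all tested genes. Car7, a cytosolic form, was lower by -0.93 (limma adjusted p = 0.00922) and Car5b, a mitochondrial form, by -0.77 (0.0121), and the other 6 were not called. Scaled to the spike-in controls after loess, neither was called and their changes were 0.05 and 0.22.

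Genes that work beside the exchangers and anhydrases in acid-base transport were mostly lower. Of 22 on the arrays 19 were tested, of which 13 were lower, against 18.8% of all tested genes. The other 6 were not called, and the median change was -1.21. Bsnd, which encodes barttin, changed by -2.36. Rhcg, an ammonia channel of the collecting duct, changed by -1.99 and Slc9a2, a sodium-proton exchanger, by -1.82 (limma adjusted p from 0.00038 to 0.000628 over these 3). Scaled to the spike-in controls after loess, 5 of the 19 were lower and 4 higher, and Slc9a2 was among those not called (-0.84).

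The slide and the scaling touch these results. All arrays were on 1 slide, with the MUT pools and WT pool 1 in 1 row and WT pools 2 and 3 in the other, per the file headers. With slide row as a block, which sets the 3 MUT pools against WT pool 1 alone, the changes were -2.90 for Slc4a1, -2.57 for Slc4a9, -2.89 for Slc26a4, -2.18 for Car2, -2.52 for Car15 and -1.42 for Car12, all called lower by limma. Slc4a7 was then not called (0.53, adjusted p = 0.196). Loess centres each array, and scaling to the spike-in controls moved the median probe up by 0.98. Slc4a1, Slc4a9, Slc26a4, Car2 and Car15 were still lower there (-1.61, -1.52, -1.72, -0.94 and -1.54). Slc26a7, Slc4a7 and Car4 were called higher (1.13, 1.61 and 0.99), as were 18508 of all 29003 tested probes, with 185 called lower. The 10 genes all had the same standard error of 0.40 on that scale. The median spike-in log2 ratios after loess were -0.10, 0.28 and 0.92 in WT and -0.79, -0.82 and -0.23 in MUT.

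**Figure D5:**
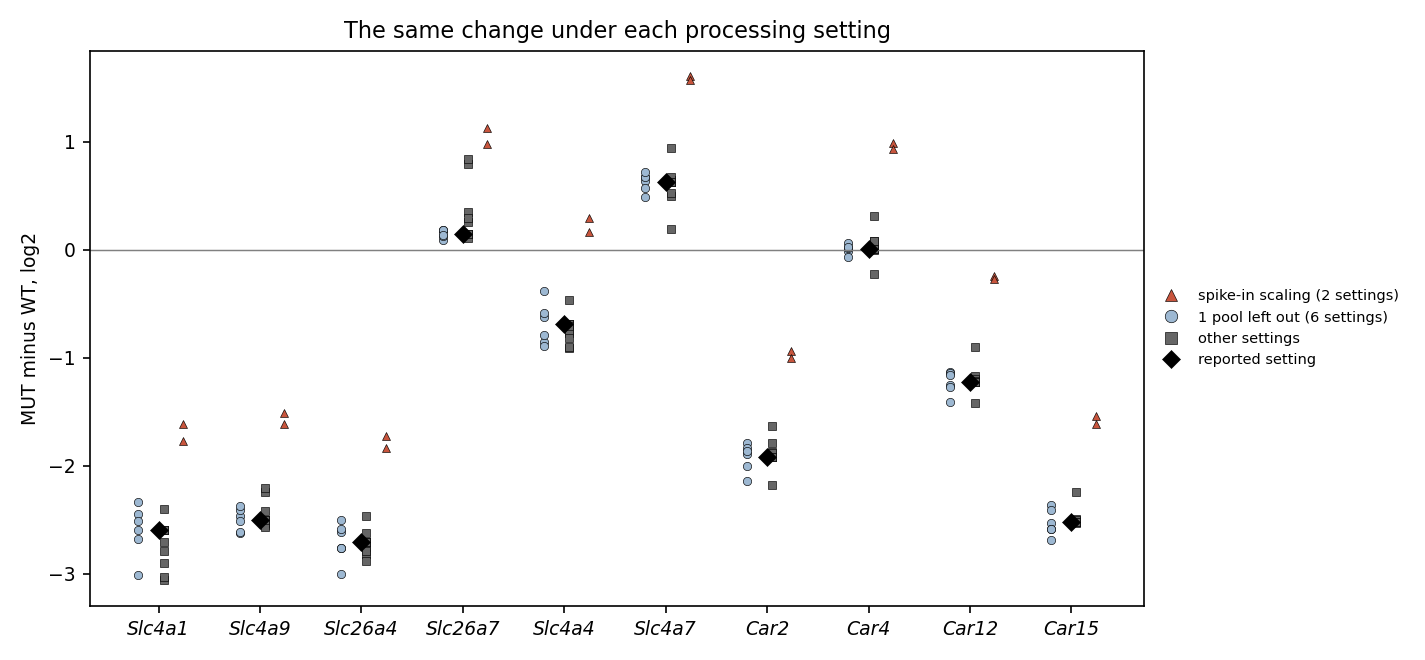
Change between MUT and WT (vertical axis, log2) of each gene (horizontal axis) under each processing setting. Black diamonds are the reported setting, blue circles leave out 1 pool each, grey squares are other settings and red triangles scale to the spike-in controls. Slc4a1, Slc4a9, Slc26a4, Car2 and Car15 lie below 0 in every setting, and the spike-in settings lie highest for each gene.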

How the data were processed

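The 6 arrays of 3 WT and 3 MUT pools were analysed. The authors deposited scanner files with spot intensity, which the submitters' processing notes credit to Agilent Feature Extraction 10.7.3.1, and a value table with the software's log10 ratio of Cy5 to Cy3. Median signals were corrected with normexp (offset 50) on the local background and normalized by loess within each array, with control spots at weight 0. The offset understates changes of dim probes. Outlier spots were left out, and spots of a probe were averaged. Probes whose Cy5 signal was well above background throughout a group were tested (29003 of 55681, or 52.1%) with limma lmFit and eBayes on all 6 arrays, with Benjamini-Hochberg adjustment. The pipeline was tested on simulated data.

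Probes were named by matching RefSeq accessions to the GRCm38.p6 table, and 28172 stayed unnamed. Promoters are RefSeq sequences of that build. The file headers name another build, so no probe coordinates are given. Computation used R 4.3.3, limma 3.58.1, data.table (version 1.17.8), Python 3.11.15 and matplotlib 3.10.9.

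The genes and lists were chosen with earlier results of these data known. All 10 genes are named with all probes. Of the 3 lists of related genes the called genes, up to 6 by smallest adjusted p, are named, and up to 3 of each cell type list. Ermap, Hemgn, Ptprc, Foxi1, Kit, Atp6v1g3 and untested erythroid genes are named outside this rule. A few genes it covers are left out here, although the counts include them. Alternatives covered background correction, scaling, filter, blocks, eBayes options, probe averaging and each pool left out.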

Additional observations from a re-analysis of the deposited data

How the results depend on the processing

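Slc4a1, Slc4a9, Slc26a4, Car2 and Car15 were lower by limma in all 19 alternatives. The count of the 10 genes called lay between 6 and 8 over them, and between 4 and 7 relative to the intercalated list in 18. That relative comparison under other settings was added after the data had been seen. The count of probes called was 7584, of which 44.2% were higher. It was 18693 with spike-in scaling after loess (99.01% higher) and 15732 without loess (98.36%). Centring on array medians gave 6034 (77.25%), with the median probe at 0.23, and slide row as a block gave 2194 (31.49%). Leaving out 1 pool gave 3831 to 9536, with 3831 without WT pool 3 and 4890 without WT pool 1.

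Signs turned for Slc4a4 under spike-in scaling (0.29 after loess, 0.17 without) and for its other probe (0.25, 0.13). For the other Slc4a7 probe they turned with median centring (0.084), spike-ins (0.74, 0.71), Cy5 alone (0.33) and without MUT pool 1 (0.11, with -0.51 to 0.11 over the pools left out). For Car4 they turned with Cy5 alone (-0.0038), without WT pool 2 (-0.0078), without MUT pool 1 (-0.070, with -0.070 to 0.060 over the pools left out) and with the mean over probes (-0.23), and for its other probe with spike-ins (0.52, 0.45). Apart from the scaling's own shift, the cause was not tested.

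Same-numbered pools deviated together with r of 0.14, 0.07 and 0.20, and pools of different number had r from -0.16 to -0.006. Each pool thus correlated best with its own number. Whether same-numbered pools share more than a number was not tested. With the pool number as a replicate block 7247 probes and 7 of the genes were called, and of the calls at the tested probes only that of the other Car4 probe was lost (adjusted p = 0.0503, with a range over its alternatives from 0.0243 to 0.603).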
